A study of Homo sapiens with 28 samples.

Results

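The transcripts described here are 30 mRNAs named for zinc fingers, taken from a table of RNA degradation rate constants that covers 2568 transcripts of HEK293T cells. They were found by name alone: a symbol that starts with ZNF, ZFP, ZBTB, ZSCAN or ZKSCAN followed by a digit. The rule took 27 ZNF transcripts and 1 each of ZBTB (ZBTB40), ZFP (ZFP64) and ZKSCAN (ZKSCAN1), and no ZSCAN transcript. HEK293T is an established human embryonic kidney line, of WT genotype per the labels, and every group came from this 1 line.

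The study labelled cells with 100 µM 4-thiouridine (s4U) for 2 h, or left them unlabelled, and then converted the s4U in isolated RNA so that new RNA reads with T-to-C mismatches. Conversion used iodoacetamide (rows named SLAM), osmium tetroxide with ammonia (OsO4 and NH3, TUC), or NaIO4, a periodate, together with the amine TFEA at pH 5.2 (TimeLapse, called periodate below). Handlings of the RNA were compared within a chemistry, named drop-out (DO) and improved (IH). A chemistry and handling had 2 libraries with label and 1 without, which makes 18 in all. Nothing in the labels says that the 2 labelled libraries came from separate cultures.

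Zinc finger proteins of the C2H2 class are the largest family of human transcription factors. Each finger folds around a zinc ion held by cysteines and histidines and reads a few bases of DNA. Many ZNF and ZKSCAN proteins join their fingers to a KRAB domain, which recruits the corepressor TRIM28, and ZBTB proteins carry a BTB domain that pairs them and binds other corepressors. Messages of regulatory proteins are often short-lived, and a degradation rate constant is larger the faster a message is lost.

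Every rate constant, log2 change and adjusted p-value below is from the authors' deposited table, which was made with bakR and holds, for each chemistry, a constant under DO, a constant under IH, and their comparison. Its time unit is not stated. It combines the libraries of a group, so values carry no error per library, and no test over samples was possible. An adjusted p under 0.05 in that table is written here as called. Of the members, 13 were measured with 1 chemistry, 8 with 2 and 9 with 3. The deposited log2 change is IH over DO and is not exactly the ratio of the 2 constants: for 3 member values near 0 (ZNF384 with OsO4, ZNF598 and ZNF740 with periodate) it was above 0 while the IH constant was the lower. Signs below are those of the deposited log2 change.

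Depth was taken as the counted reads of the HISAT-3N alignment, summed over all counting settings. It ranged from 2302209 to 5813077 for the DO libraries with label, and from 2129372 to 4707058 for their IH counterparts. Whether a read can be counted under more than 1 setting was not checked. In the same order, 16.7% to 25.0% and 40.0% to 58.2% of reads carried at least 1 T-to-C mismatch, and in the unlabelled libraries 2.41% to 5.17% did. The 95% Wilson interval of such a share reached at most 0.0658 percentage points to either side, which covers counting error only. Over all RNA the share of converted reads was thus higher under IH with label and lower under IH without it. Its part in the rate constants below was not tested.

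Zinc finger messages were among the fastest-decaying transcripts with each chemistry. Under IH their median rate constant was 0.276 with iodoacetamide (12 transcripts), 0.270 with OsO4 (21) and 0.246 with periodate (23). The medians of all other transcripts were 0.0829, 0.0990 and 0.101, so the zinc finger medians were 3.33, 2.73 and 2.44 times as high. Under DO the zinc finger medians were 0.193, 0.217 and 0.191, which were 5.48, 5.36 and 4.49 times those of the other transcripts. Among transcripts measured with all 3 chemistries, 9 of them members, the DO folds were 9.21, 7.65 and 7.63. Under IH 11 of 12, 21 of 21 and 23 of 23 members lay above the median of the other transcripts. Among the fastest 10% of all transcripts under IH were 9 of 12, 14 of 21 and 10 of 23 members. The ZNF transcripts taken alone, which are all of the members with iodoacetamide, had IH medians of 0.291 with OsO4 and 0.255 with periodate. ZNF664, measured with iodoacetamide alone, was the member below the median of other transcripts under IH, at 0.0425.

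**Figure D1:**
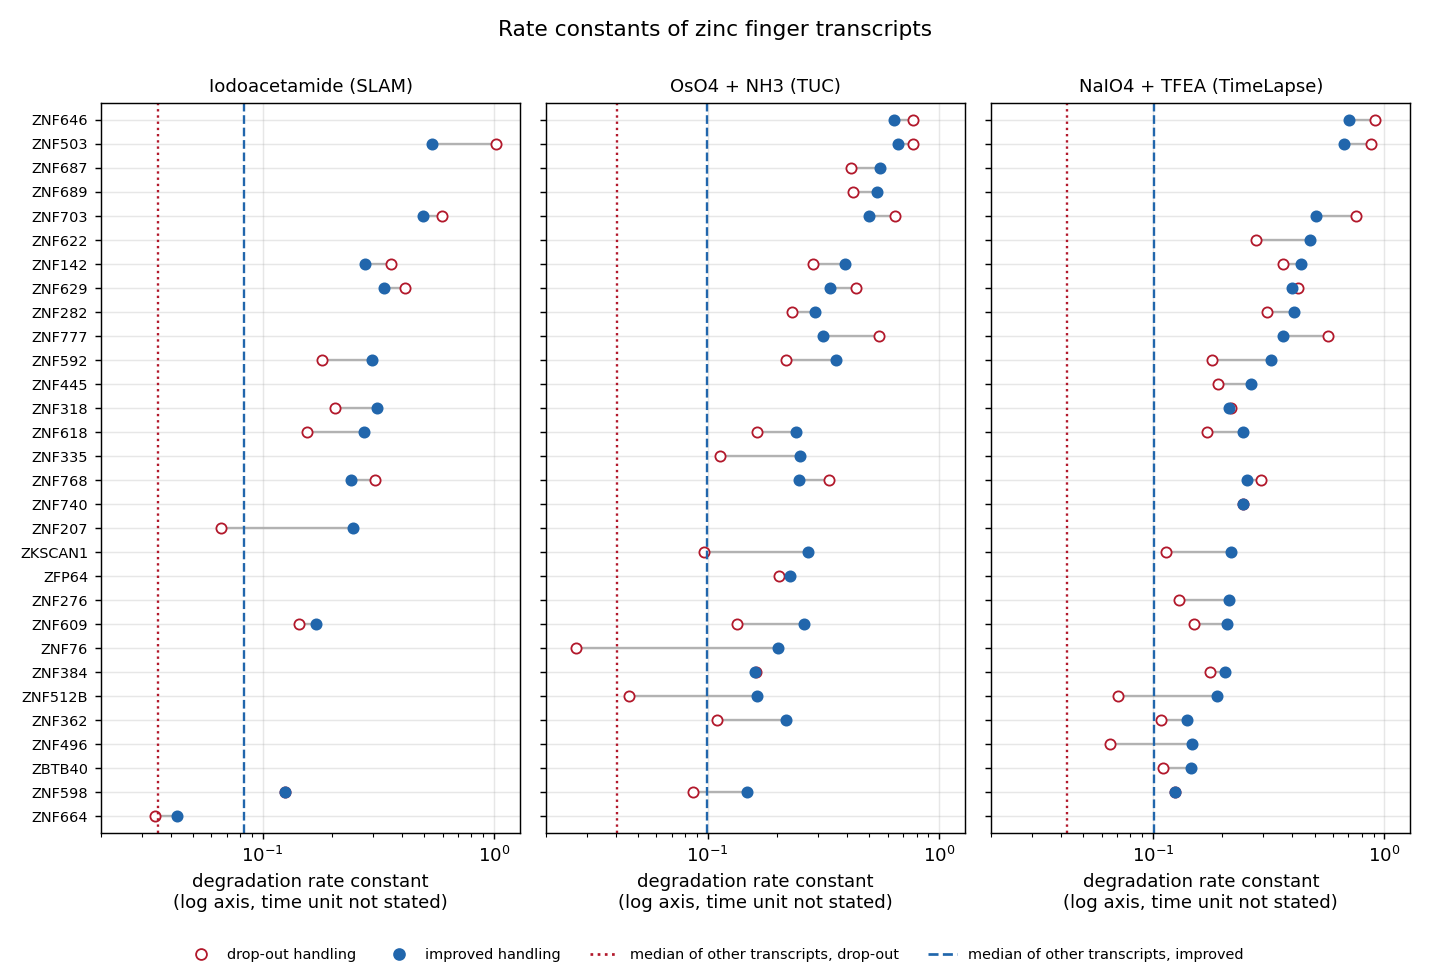
Degradation rate constants (log axis, time unit not stated) of the 30 zinc finger transcripts in the 3 chemistries, ordered by mean log2 constant under IH. Open red points are drop-out handling, filled blue points improved handling, and vertical lines the medians of all other transcripts; the table gives no value per library, so there are no error bars. Under IH every point but that of ZNF664 lies to the right of the blue line, and of the 5 members at the top of the order, ZNF646, ZNF503 and ZNF703 have their open points to the right of the filled ones and ZNF687 and ZNF689 to the left.

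Between the handlings, most members had a lower log2 change than the median of the other transcripts. This held for 11 of 12 with iodoacetamide, 18 of 21 with OsO4 and 21 of 23 with periodate. The changes are signed, so values on either side of 0 offset each other in a median, and absolute sizes were not compared. The median log2 change of the members was 0.13 with iodoacetamide, 0.44 with OsO4 and 0.39 with periodate, against 1.15, 1.20 and 1.19 for all other transcripts. Over the 9 members measured with all 3 chemistries it was -0.28, 0.47 and 0.01, so the direction of the iodoacetamide median turned with the choice of transcripts. With iodoacetamide 1 of 12 members was called higher under IH, where 48.9% of all transcripts were. With OsO4 the count was 5 of 21, beside 48.1% of all transcripts, and with periodate 2 of 23, beside 52.6%. Each chemistry also called 1 member lower under IH, beside 1.44%, 0.442% and 0.679% of all transcripts in the same order. Of 56 member values over the chemistries, 45 were not called. At an adjusted p under 0.01, 1 of 12, 3 of 21 and 2 of 23 members were called in either direction, beside 33.1%, 27.3% and 34% of all transcripts. A value below 0, called or not, was found for 5 of 12, 6 of 21 and 7 of 23 members, and for 8.31%, 6.92% and 6.82% of the other transcripts.

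Among the highest constants were those of the NET proteins ZNF503 and ZNF703, paralogous co-repressors that carry a single atypical zinc finger; ZNF703 is also known as an oncogene in breast cancer. For ZNF503 the constant was 1.02 (DO) and 0.538 (IH) with iodoacetamide, 0.773 and 0.664 with OsO4, and 0.875 and 0.672 with periodate. It ranked 10 of 1600, 7 of 2262 and 16 of 2209 under IH. It fell with iodoacetamide (log2 change -0.91, authors' adjusted p = 0.0148). The values with OsO4 (-0.21, adjusted p = 0.548) and periodate (-0.37, adjusted p = 0.277) were not called. The DO and IH constants of ZNF703 were 0.599 and 0.494, 0.647 and 0.496, and 0.756 and 0.508 in the same order of chemistries. Here the fall with periodate was called (-0.57, authors' adjusted p = 0.00429), while iodoacetamide gave -0.28 (adjusted p = 0.239) and OsO4 gave -0.38 (adjusted p = 0.124). All 6 changes of this pair were below 0, and their IH constants were 5.01 to 6.71 times the median of other transcripts.

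The members known or named for KRAB or SCAN domains, the latter a module that pairs such proteins, were ZKSCAN1, ZNF445, ZNF496, ZNF282, ZNF777 and ZNF689. ZNF777 was called lower with OsO4, from 0.553 to 0.316 (log2 change -0.80, authors' adjusted p = 0.0399), and its value with periodate, from 0.570 to 0.366, just missed the threshold (-0.63, adjusted p = 0.0540). ZNF282, a repressor first described for a sequence of a human retrovirus, had constants of 0.231 and 0.291 with OsO4 and of 0.313 and 0.409 with periodate (0.34, adjusted p = 0.398, and 0.39, adjusted p = 0.214). The genes of ZNF282 and ZNF777 lie close together on chromosome 7, at chr7:149195546-149226243 and chr7:149431363-149461062 of GRCh38.p14. These neighbours' log2 changes had opposite signs in both chemistries; the difference between them was not tested.

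ZKSCAN1 rose with OsO4 from 0.0963 to 0.270 (log2 change 1.55, authors' adjusted p = 0.00721), and with periodate its constants were 0.114 and 0.218 (0.99, adjusted p = 0.0521). ZNF689 was measured with OsO4 alone, at 0.427 under DO and 0.542 under IH, rank 24 of 2262 (0.36, adjusted p = 0.396). Periodate alone gave ZNF445, known for holding imprinted regions silent, at 0.191 and 0.266 (0.52, adjusted p = 0.223), and ZNF496 at 0.0653 and 0.147 (1.25, adjusted p = 0.0753). This group therefore spanned both directions, with ZKSCAN1 called higher and ZNF777 called lower in the OsO4 comparison.

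A further 6 members act with chromatin regulators or nuclear receptors. ZNF592 and ZNF687 are related proteins that bind the chromatin reader ZMYND8. ZNF592 went from 0.181 to 0.298 with iodoacetamide, from 0.217 to 0.359 with OsO4 and from 0.181 to 0.323 with periodate. The last of these was called (log2 change 0.86, authors' adjusted p = 0.0201), and the others were 0.73 (adjusted p = 0.0815) and 0.74 (adjusted p = 0.0729), so the 3 chemistries gave nearly the same size. ZNF687 was faster, at 0.416 and 0.558 with OsO4 (0.44, adjusted p = 0.257), rank 21 of 2262 under IH.

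ZNF609, a partner of the cohesin loader NIPBL, was called with OsO4, from 0.133 to 0.260 (log2 change 0.99, authors' adjusted p = 0.0369). With iodoacetamide it stood at 0.144 and 0.170 (0.25, adjusted p = 0.615), and with periodate at 0.150 and 0.210 (0.50, adjusted p = 0.201). ZNF335, whose mutation causes microcephaly, rose with OsO4 from 0.113 to 0.250 (1.17, authors' adjusted p = 0.0435). ZNF618, a partner of the 5-hydroxymethylcytosine reader UHRF2, had DO constants of 0.156, 0.163 and 0.171 and IH constants of 0.274, 0.242 and 0.246. Its log2 changes of 0.84, 0.60 and 0.55 were not called. ZNF318, a co-regulator of the androgen receptor, stood at 0.205 and 0.313 with iodoacetamide (0.65, adjusted p = 0.163) and at 0.218 and 0.213 with periodate (-0.01, adjusted p = 0.984). Of the 13 values of these 6 transcripts, 12 were above 0 and 3 were called, all higher, where 48.1% to 52.6% of all transcripts were called higher and 6.82% to 8.31% of other transcripts were below 0. Values above 0 in this group are therefore no more than the background.

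Among the remaining DNA-binding or less studied zinc finger proteins, the multi-finger ZNF646 had constants in the range of the NET pair or above it. Its constant was 0.770 under DO and 0.638 under IH with OsO4 (log2 change -0.26, adjusted p = 0.468), and 0.909 and 0.707 with periodate (-0.36, adjusted p = 0.332). ZNF629 and ZNF768 were below 0 with all 3 chemistries. ZNF629 gave -0.29, -0.37 and -0.09 in the order iodoacetamide, OsO4 and periodate, and ZNF768 gave -0.35, -0.42 and -0.20; none of these 6 values was called, with authors' adjusted p of 0.223 to 0.771. For ZNF629 the DO constants were 0.412, 0.437 and 0.425 and the IH constants 0.336, 0.337 and 0.398. For ZNF768 they were 0.307, 0.335 and 0.294 under DO and 0.240, 0.249 and 0.255 under IH.

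ZNF142 had DO constants of 0.358, 0.286 and 0.364 and IH constants of 0.279, 0.393 and 0.437 in that order, with log2 changes of -0.35, 0.47 and 0.28 that were not called. By the deposited log2 change, mixed signs over chemistries were found for ZNF142 and ZNF318 only, while 6 members were below 0 wherever measured (4 of them in 3 chemistries and 2 in 2) and 22 were above 0 wherever measured, among them all 13 measured with 1 chemistry. By the log2 ratio of the constants, 7 members were below 0 wherever measured, 19 above and 4 mixed, because ZNF740 and 1 value each of ZNF384 and ZNF598 lay just below 0. The 6 below 0 by the deposited value were ZNF503, ZNF703, ZNF629, ZNF768, ZNF646 and ZNF777. This tally over chemistries was not made for the other transcripts.

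ZNF362 and ZNF384 are paralogs, and ZNF384 is known for its fusions in acute leukaemia. ZNF362 went from 0.110 to 0.219 with OsO4 (log2 change 1.02, adjusted p = 0.0633) and from 0.109 to 0.140 with periodate (0.39, adjusted p = 0.532). ZNF384 stood at 0.162 and 0.161 with OsO4 and at 0.177 and 0.205 with periodate, with deposited log2 changes of 0.01 and 0.24 that were not called. ZNF740, at 0.246 under each handling with periodate, had a deposited log2 change of 0.03. ZFP64 with OsO4 (0.204 and 0.227), ZBTB40 with periodate (0.110 and 0.147) and ZNF276 with periodate (0.129 and 0.213) were not called either, with log2 changes of 0.18, 0.45 and 0.77. ZBTB40 was the only ZBTB transcript, so nothing could be said of that class as a group.

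ZNF76 had the largest rise. This activator, related to ZNF143, went from 0.0269 under DO to 0.201 under IH with OsO4 (log2 change 3.02, authors' adjusted p = 0.000550), and was not in the other comparisons. Its DO constant was the lowest of any member. ZNF512B rose with both chemistries that measured it, from 0.0456 to 0.163 with OsO4 (1.91, authors' adjusted p = 0.00594) and from 0.0704 to 0.189 with periodate (1.46, adjusted p = 0.00630). Both of these rises were called. ZNF664 stood at 0.0344 and 0.0425 with iodoacetamide (0.42, adjusted p = 0.628).

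The label transcription factor did not suit every member. ZNF598 is a ubiquitin ligase that marks collided ribosomes, ZNF622 matures the large ribosomal subunit, and ZNF207 (BuGZ) works on the mitotic spindle. ZNF598 had among the lowest constants of the members, with DO values of 0.124, 0.0861 and 0.125, IH values of 0.125, 0.149 and 0.125, and log2 changes of 0.01, 0.80 and 0.01 (authors' adjusted p of 0.987, 0.0549 and 0.991). ZNF622 was fast, at 0.278 and 0.476 with periodate (0.80, adjusted p = 0.0550). ZNF207 rose with iodoacetamide from 0.0660 to 0.245 (1.96, authors' adjusted p = 0.000989) and was the single member called higher there. Without ZNF207 and ZNF598, the ones of these 3 measured with iodoacetamide, the members' median log2 change there was -0.01.

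The order of the zinc finger messages was similar in the 3 chemistries. Over the 16 members measured with both OsO4 and periodate, the rank correlation (Spearman's rho) was 0.974 for the DO constants, 0.935 for the IH constants and 0.879 for the log2 changes. Over the 1924 other transcripts the same values were 0.902, 0.934 and 0.703. With iodoacetamide in the pair, over 9 members (OsO4) and 10 members (periodate), rho was 0.983 and 1 for the DO constants, above the 0.896 and 0.913 of other transcripts. For the IH constants it was 0.867 and 0.818, below their 0.920 and 0.935, and for the log2 changes 0.583 and 0.673, below their 0.709 and 0.701. Transcripts share their libraries and differ in depth, so these correlations describe the table and carry no p. For the 9 members measured with all 3 chemistries, the median SD of a log2 constant over the chemistries was 0.15 under DO and 0.14 under IH. It was 0.28 and 0.23 for 1462 other transcripts. Most of these members are fast while the other transcripts span all speeds, and the SD was not compared among transcripts of like speed.

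To compare the members with other fast transcripts, all were ranked by their IH constant in a different chemistry, so that the ranking and the log2 change came from different libraries. Among the other transcripts the median log2 change was 0.87 to 0.99 in the fastest 20%, over the 6 pairings of chemistries. The 8 to 14 members in that stratum had medians of -0.28 to 0.28. The members' median was lower by 0.60 to 1.28 on the log2 scale in these pairings. In the fastest 10% the other transcripts gave 0.65 to 0.84 and the members -0.29 to 0.09. In the fastest 20%, members below the median of the other transcripts numbered 8 of 8 (ranked in OsO4) and 9 of 9 (ranked in periodate) for iodoacetamide shifts. For OsO4 shifts they numbered 7 of 8 (ranked in iodoacetamide) and 11 of 14 (periodate), and for periodate shifts 9 of 9 (iodoacetamide) and 12 of 13 (OsO4). Speed was not matched within the strata: the members' median IH constant in the ranking chemistry was 1.33 to 1.53 times that of the other transcripts in the fastest 20% and 1.06 to 1.25 times in the fastest 10%. The pairings share libraries, members and genes, so they are not separate tests.

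The gap was smaller when speed was ranked by the DO constant. In the fastest 20% so ranked, the other transcripts had medians of 0.46 to 0.49 and the members of -0.28 to 0.47, a difference of -0.76 to 0.01. The difference was within 0.01 of 0 for OsO4 shifts ranked in iodoacetamide. In the same order of pairings, 6 of 8, 7 of 10, 4 of 9, 8 of 15, 7 of 10 and 10 of 14 members of the fastest 20% by DO constant lay below the median of the others. In the fastest 10% by DO constant all 6 differences were below 0, from -0.65 to -0.16. Members were again faster than the others, with median DO constants 1.76 to 2.50 times as high in the fastest 20% and 1.45 to 1.81 times in the fastest 10%. Other transcripts that were fast under DO thus also had low log2 changes. A constant under DO enters the log2 change of its own chemistry. The ranking chemistry used separate libraries, but DO constants of other transcripts correlated between chemistries (Spearman's rho 0.896 to 0.913). Their IH constants did too (0.920 to 0.935). Neither ranking is therefore independent of the log2 change, and how much this adds to the values in the strata was not tested. Within the members, those faster under IH in one chemistry had lower log2 changes in another. Spearman's rho lay between -0.46 and -0.65 over the 6 pairings of 9 to 16 members, and between -0.01 and -0.11 over the other transcripts. The latter span all speeds, while most members were in the fastest 20% by IH constant, so these values do not compare like with like. At the fast end the median log2 change of the other transcripts was also lower, at 0.65 to 0.84 in the fastest 10% beside 0.87 to 0.99 in the fastest 20%. Whether the trend is particular to the members was not tested.

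**Figure D2:**
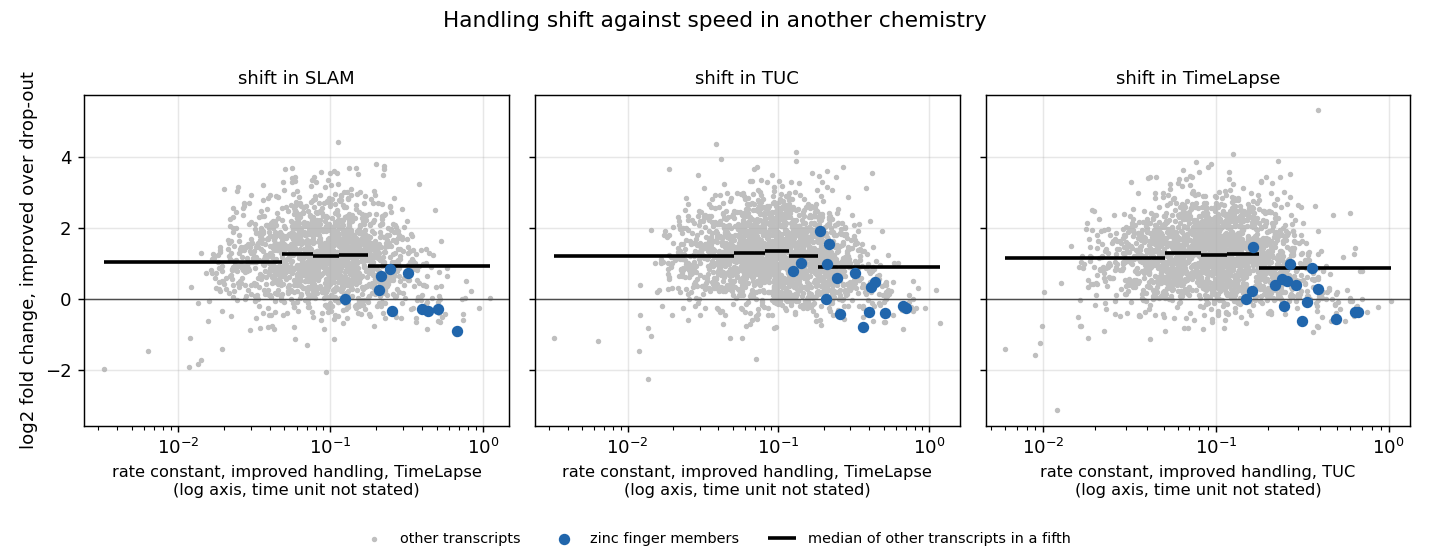
Deposited log2 change of the rate constant in a chemistry (vertical axis, IH over DO) against the IH constant in another chemistry (horizontal log axis, time unit not stated). Grey points are other transcripts, black bars their median in each of 5 equal bins of speed, and blue points zinc finger members. In the fastest bin the bars lie at 0.94, 0.90 and 0.87 from left to right, with most blue points below them.

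Related genes were read from lists of protein partners and other factors. Messages of the proteins that KRAB and BTB domains recruit had median constants well below those of the zinc finger messages. Of 11 KRAB corepressor genes 9 were in the table, with median IH constants of 0.0520 with iodoacetamide, 0.0695 with OsO4 and 0.0698 with periodate. TRIM28 itself, the scaffold of that complex, had IH constants of 0.0554, 0.0664 and 0.0808, below the median of other transcripts with each chemistry. SETDB1, the histone methyltransferase of the complex, was the fast exception at 0.243 with OsO4 and 0.276 with periodate, and was called higher in both (1.99, authors' adjusted p = 0.00162, and 1.80, adjusted p = 0.00106). Over the list 13 of 24 values (54.2%) were called higher and none lower, a share near the 48.1% to 52.6% of all transcripts called higher.

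Of 6 BTB partner genes 5 were measured, with median IH constants of 0.0755, 0.101 and 0.0974 in the same order. BCOR and SIN3A were fast exceptions, with IH constants of 0.373, 0.366 and 0.362 and of 0.207, 0.252 and 0.269. Of the 15 values of the 5 genes 8 (53.3%) were called higher, near the same background. A further 2 were called lower, where 0.442% to 1.44% of all transcripts were. Both lower calls were those of BCOR, a corepressor of the BTB protein BCL6. BCOR fell from 0.539 to 0.373 with iodoacetamide (-0.52, authors' adjusted p = 0.0285) and from 0.693 to 0.362 with periodate (-0.93, adjusted p = 8.10e-06), and gave -0.52 with OsO4 (adjusted p = 0.0716).

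Zinc finger factors that the name rule does not take also had IH medians above those of the other transcripts. Of 53 listed C2H2 factors under other names 12 were in the table, and 0 of their 28 values were called in either direction by the authors' bakR test, beside 48.1% to 52.6% of all transcripts called higher and 0.442% to 1.44% called lower. Their median IH constants were 0.189, 0.293 and 0.336 and their median log2 changes 0.17, 0.16 and -0.15, in the order iodoacetamide, OsO4 and periodate. With iodoacetamide, where 6 were measured, their IH median lay below the members' lower quartile of 0.223, and 1 of the 6 was among the fastest 10% of transcripts. CTCF, the insulator protein, had IH constants of 0.272 with OsO4 and 0.309 with periodate. ZIC2, a developmental regulator, went from 0.735 to 0.465 and from 0.778 to 0.506 with those chemistries (-0.65 and -0.61, not called). MAZ was slower, with IH constants of 0.0696, 0.0863 and 0.0758.

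Of 42 other transcription factors listed, 22 were in the table. Their median IH constants were 0.319, 0.197 and 0.245 in the same order of chemistries, beside 0.276, 0.270 and 0.246 for the members. A log2 change below 0 was found for 46.2%, 33.3% and 31.6% of them, beside 41.7%, 28.6% and 30.4% of the members. High constants and values below 0 were thus not particular to the zinc finger members. Of the 53 values of the listed factors 16 (30.2%) were called higher and 3 (5.66%) lower, beside 48.1% to 52.6% and 0.442% to 1.44% of all transcripts. The 3 lower calls were those of JUN, a short-lived early response message, with log2 changes of -0.98, -0.85 and -0.63 and authors' adjusted p of 0.000294, 0.00253 and 0.00867. MYC was faster than any zinc finger message, with IH constants of 0.953, 0.871 and 0.937, and was not called. ATF4, the stress response regulator, was as fast as many members under IH (0.319, 0.312 and 0.361) and rose by 1.28, 1.55 and 1.81, called with each chemistry. So among fast messages of transcription factors the deposited changes ran in both directions.

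**Figure D3:**
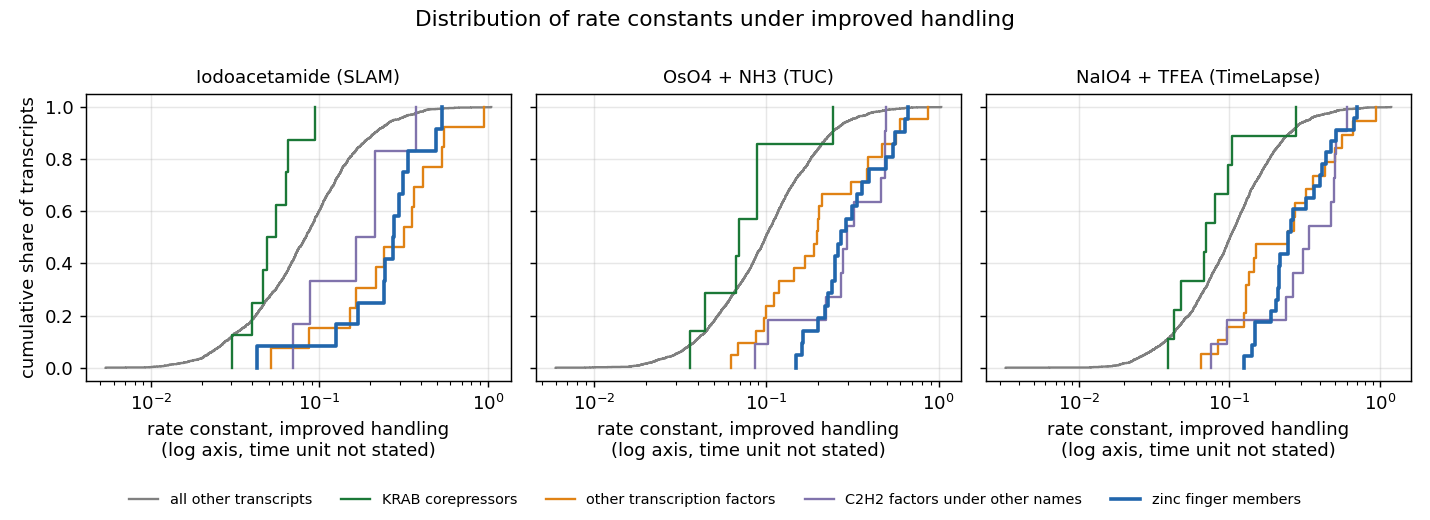
Cumulative share of transcripts (vertical axis) at or below each degradation rate constant under IH (horizontal log axis, time unit not stated), for the 3 chemistries. At the middle of the vertical axis the curve of the zinc finger members (medians 0.276, 0.270 and 0.246) lies to the right of that of all other transcripts (0.0829, 0.0990 and 0.101), and that of the KRAB corepressors to the left of it (0.0520, 0.0695 and 0.0698). The C2H2 factors under other names (0.189, 0.293 and 0.336) lie left of the members with iodoacetamide and right of them with the other chemistries. The other transcription factors have medians of 0.319, 0.197 and 0.245.

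The measured members are a small part of the family. RefSeq (GRCh38.p14) lists 608 protein-coding genes that the name rule takes, of which 4.93% were in the rate constant table, against 12% of all 20056 protein-coding genes. Of the 608 genes 265 (43.6%) lie on chromosome 19, where the large KRAB zinc finger clusters are, and 0 of the 30 members do, although 251 other genes of that chromosome were in the table. Of 42 ZBTB genes 1 was measured, and of 21 ZSCAN genes 0. How the authors chose transcripts is not given in the sources used here, and a level of these transcripts could not be read from the count table, so whether the missing members were too rare was not tested.

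Chromosome 16 held 6 of the 30 members, beside 35 of the 608 RefSeq genes that the name rule takes. The share of all genes of the table was not counted for that chromosome. Close together on it were ZNF768 (chr16:30524004-30532477), ZNF689 (chr16:30602558-30610775), ZNF629 (chr16:30778456-30787205) and ZNF646 (chr16:31072687-31084196), and their IH constants ran from 0.240 to 0.707. The median gene span of the members was 29.7 kb, near the 26.3 kb of other genes in the table.

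Promoter sequence was described as a feature that the name rule did not use. RefSeq held a promoter (250 bases before to 50 after the start) for 24 of the 30 members. Their median GC content was 68.8%, beside 67.0% for 2030 other genes of the table and 58.3% for all 27305 genes. The GC box, GGGCGG on either strand, was in 17 of 24 (70.8%), beside 76.2% and 44.6%, and TATAAA on either strand in 1 of 24 (4.17%), beside 4.43% and 12%. On these measures the members were nearer to the other genes of the table than to all genes. The 120 bases before the transcript start that the RefSeq promoter table lists first are shown for 3 members, with GC boxes in capitals. These are the 2 fastest under IH that have an entry and the slowest under IH. All read 5′ to 3′ along the gene. For ZNF646 that transcript start lies 1735 bases inside the gene span given above, and for the other two it is the gene's outer edge.
ZNF503 (chr10:75401917-75402036, minus strand, GRCh38.p14): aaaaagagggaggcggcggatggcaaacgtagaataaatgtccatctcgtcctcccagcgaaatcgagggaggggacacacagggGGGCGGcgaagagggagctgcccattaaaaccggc
ZNF646 (chr16:31074302-31074421, plus strand, GRCh38.p14): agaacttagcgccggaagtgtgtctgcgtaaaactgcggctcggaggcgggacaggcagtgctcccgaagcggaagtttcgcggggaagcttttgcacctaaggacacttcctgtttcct
ZNF664 (chr12:123973095-123973214, plus strand, GRCh38.p14): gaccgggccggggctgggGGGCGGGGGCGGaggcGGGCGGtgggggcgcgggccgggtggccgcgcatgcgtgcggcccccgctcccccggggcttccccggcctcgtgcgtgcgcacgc
The ZNF664 stretch held 3 GC boxes and 87.5% GC, the ZNF503 stretch 1 box and 58.3%, and the ZNF646 stretch 0 boxes and 57.5%. The full promoter of ZNF646 did hold a GC box and is among the 17 promoters with a box counted above. A match of these letters is a description and not a bound site, and a rate constant of decay does not measure the promoter.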

How the data were processed

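Per the labels, total RNA was converted and made into stranded libraries, and the submitters' processing notes name cutadapt, HISAT2, STAR, HISAT, Picard, HTSeq and DESeq2 with GRCh38; versions are not given in the sources used here. The authors deposited a count table (reads per library, aligner, gene identifier and number of T-to-C mismatches) and, from bakR, rate constants per chemistry with a log2 fold change and an adjusted p-value. How those p-values were adjusted is not stated. The deposited log2 change is IH over DO: log2 of IH divided by DO differed from it by at most 0.352, and the signs were equal in 99.7% of 6071 values.

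Counts gave only depth and converted shares (at least 1 mismatch, HISAT-3N). Their gene identifiers could not be paired with symbols, so the planned edgeR tests of gene counts and converted shares were not run. Samples of 5 further chemistries, 10 in number, were not used here. The rows TimeLapse were taken as the libraries titled TL. Medians, ranks and counts used Python 3.11.15 with pandas 2.3.3, and the stratum script was checked on simulated data. The simulated shift did not depend on speed, so the check does not cover the unmatched speed of the members.

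Members, lists and tests were chosen with earlier results of these data known. The rule for named genes took all ZBTB, ZFP and ZKSCAN members, ZNF members measured in 3 chemistries and members called lower; the other members were named so that each is accounted for, and role groups and speed strata were set after values were seen.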

Additional observations from a re-analysis of the deposited data

How the results depend on the processing

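No paired analysis was possible because the rate constants are given per chemistry and not per library, and for the same reason no library could be left out. Alternatives moved 22 of 54 values by more than their spread (1.5 times for counts) and 32 by less. This spread was the SD between pairings of chemistries for the speed strata, and between chemistries for folds and median log2 changes. The causes were not tested. The median log2 change with iodoacetamide turned below 0 among transcripts in all 3 chemistries, and 1 difference in speed strata turned just above 0. In the order iodoacetamide, OsO4 and periodate, 2 of 12, 6 of 21 and 3 of 23 members were called in the main setting. Of all transcripts, 50.3%, 48.6% and 53.3% were. At an adjusted p under 0.01 the counts were 1, 3 and 2, beside 33.1%, 27.3% and 34% of all transcripts. With an absolute log2 change of at least 1 they were 1, 4 and 1. Among transcripts in all 3 chemistries, 9 of them members, they were 1, 1 and 2. The share of all transcripts was not counted for the last 2 settings, so these counts cannot be set against a background. Without the members known outside transcription the iodoacetamide count was 1 and its DO fold over other transcripts 7.27. Among transcripts in all 3 chemistries the DO folds were 9.21, 7.65 and 7.63, the IH folds 3.63 (OsO4) and 3.46 (periodate), and the median log2 change -0.28 (iodoacetamide) and 0.0051 (periodate). Means of log2 values moved none of the folds or median log2 changes by more than that spread. Log2 of the 2 constants was used for the median log2 changes only, and moved none of them by more. The difference of members from other transcripts in the fastest 20%, for shifts in iodoacetamide, was -0.99 in the fastest 10% ranked in OsO4 and, ranked by DO constants, -0.76 (OsO4) and -0.60 (periodate). Ranked by DO constants it was 0.0071 (iodoacetamide) and -0.13 (periodate) for shifts in OsO4, and -0.50 (iodoacetamide) and -0.22 (OsO4) for shifts in periodate. These strata were chosen after seeing the data. The alternatives on gene counts and converted shares (DESeq2, filters, other alignments, intronic reads, the replicate block, each library left out) were not run, since the counts could not be tied to the members. Leaving out members without a finger match in their protein was not run, since no protein table was used here. The constants carry no depth per transcript, so precision per member is unknown.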
